A study of Mus musculus with 9 samples.

Results

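The replication-dependent histone genes were described across E14.5 midbrain libraries of *Nkx2.9*-ablated and control embryos. They were taken as the protein-coding genes whose symbol begins with Hist1h, Hist2h, Hist3h or Hist4h in the GENCODE vM21 mouse annotation, and 65 of the 51912 genes in the table met this rule. Of these, 6 encoded linker histone H1, 18 encoded H2A, 16 encoded H2B, 12 encoded H3 and 13 encoded H4. The annotation held 67 such protein-coding symbols and 3 pseudogenes; Hist1h2bh and Hist1h2bm had no row in the table and were not analysed here. RNA of micro-dissected midbrains came from C57Bl/6 embryos that were *Nkx2.9*+/+, *Nkx2.9*LacZ/+ or *Nkx2.9*LacZ/LacZ, with no other treatment; the series text calls the material cortical, while the sample labels say midbrain. *Nkx2.9* encodes a homeobox transcription factor, and the LacZ allele, which embryos that inherit it carry in every cell, has a LacZ cassette instead of exon 1. Each of the 9 libraries (3 per genotype) held cDNA from a pair of midbrains, so a library is not a single embryo, and its value is an average over both. Libraries are numbered here by the column of the deposited table: 1, 2 and 3 were *Nkx2.9*LacZ/LacZ, 4, 5 and 6 were *Nkx2.9*LacZ/+, and 7, 8 and 9 were *Nkx2.9*+/+.

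These genes supply the histones that package newly copied DNA, and cells transcribe them mainly in S phase. H2A with H2B and H3 with H4 form the nucleosome core, while H1 binds the linker DNA between nucleosomes. Their mRNAs are the main class of animal mRNA without a poly(A) tail: they end in a short stem-loop that SLBP binds, cut there with the help of the U7 snRNP, and NPAT drives their transcription in nuclear histone locus bodies. In an embryonic midbrain, dividing progenitors lie along the ventricle and post-mitotic neurons settle outside them. The RNA was depleted of ribosomal RNA rather than selected for poly(A), according to the methods of the study, so mRNAs without a tail could enter the libraries.

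The genes lay in 4 clusters of the GRCm38 genome. The Hist1 cluster on chromosome 13 held 52 of them between positions 21715763 and 23934851, and gave 81.96% of their summed level. The Hist2 cluster on chromosome 3 held 10 members and gave 4.62%. The Hist3 pair on chromosome 11 gave 11.1%, and Hist4h4 on chromosome 6 gave 2.32%.

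The 3′ stem-loop is the feature that sets these mRNAs apart, and it is shown for members that carry its main forms. A perfect inverted repeat of 6 bases that starts with GG, around a loop of 4 bases that starts with TT, was found in the annotated transcripts of 42 of the 65 members (64.6%). The same search found it in 109 of 21886 other protein-coding genes (0.498%). Of the 23 members without it, 11 had annotated models that hold the coding sequence alone, so the search could not reach their 3′ end. Capitals mark the stem and loop, and 5 flanking bases stand on each side.
Hist1h1e: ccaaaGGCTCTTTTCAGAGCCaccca
Hist1h2ab: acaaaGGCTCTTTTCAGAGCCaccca
Hist1h2bb: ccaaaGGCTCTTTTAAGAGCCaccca
Hist3h2ba: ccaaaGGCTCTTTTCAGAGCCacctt
Hist1h3c: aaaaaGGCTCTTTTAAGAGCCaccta
Hist1h4h: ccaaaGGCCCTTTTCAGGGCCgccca
Hist1h4j: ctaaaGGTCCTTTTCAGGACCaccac
Hist2h4: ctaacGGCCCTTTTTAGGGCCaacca

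In GRCm38 these stretches lie at chr13:23621777-23621802 on the minus strand (Hist1h1e), chr13:23751567-23751592 on the plus strand (Hist1h2ab), chr13:23747198-23747223 on the plus strand (Hist1h2bb) and chr11:58949344-58949369 on the plus strand (Hist3h2ba). The others lie at chr13:23745042-23745067 on the minus strand (Hist1h3c), chr13:23531453-23531478 on the plus strand (Hist1h4h), chr13:21735432-21735457 on the plus strand (Hist1h4j) and chr3:96262934-96262959 on the minus strand (Hist2h4). The stem differed by class. All 31 members of H1, H2A, H2B and H3 in which a stem-loop was found had GGCTCT as the left arm, and none of the 11 H4 members had it. Among the H4 members, 9 had GGCCCT and 2, Hist1h4b and Hist1h4j, had GGTCCT. The loop was TTTC in 33 members, TTTA in 6 and TTTT in 3.

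The stretch before the start site also split the classes. Promoters of 60 members were matched in the RefSeq table of GRCm38.p6 (300 bases, most of them upstream of the start site), and 3 motifs were counted on both strands: CCAAT, the box bound by NF-Y; TATAAA, the core of the TATA box; and GGTCCG, part of the H4 element bound by HINFP, which was added after the promoters had been seen. CCAAT stood in 51 of 60 member promoters (85%) against 37.4% of all 32851 promoters in the table. It was in 48 of 48 promoters of H1, H2A, H2B and H3 but in 3 of 12 of H4. GGTCCG showed the opposite split, with 11 of 12 H4 promoters and 1 of 48 others, against 8.25% of all promoters. TATAAA stood in 35 of 60 (58.3%) against 13.6%, and TATAAA together with CCAAT in 29 of 60 (48.3%) against 5.31%. The motifs can share bases, since CCAAT can run into TATAAA or out of the reverse complement of GGTCCG. The last 100 bases before the RefSeq start are shown for 5 highly expressed members to make this split visible, with the motifs (either strand) in capitals.
Hist1h1e: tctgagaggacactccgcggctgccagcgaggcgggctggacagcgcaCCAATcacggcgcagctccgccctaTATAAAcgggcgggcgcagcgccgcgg
Hist1h2bb: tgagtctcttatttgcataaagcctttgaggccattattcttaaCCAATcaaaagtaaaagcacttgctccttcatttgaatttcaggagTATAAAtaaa
Hist1h3h: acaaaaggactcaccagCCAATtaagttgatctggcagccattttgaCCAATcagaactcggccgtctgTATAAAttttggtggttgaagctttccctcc
Hist1h4k: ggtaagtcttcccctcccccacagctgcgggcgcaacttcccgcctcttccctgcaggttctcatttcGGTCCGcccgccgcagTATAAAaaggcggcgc
Hist1h4c: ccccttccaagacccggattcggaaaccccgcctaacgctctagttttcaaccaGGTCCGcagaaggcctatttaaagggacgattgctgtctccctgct

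These stretches are chr13:23622559-23622658 (minus strand, Hist1h1e), chr13:23746634-23746733 (plus, Hist1h2bb), chr13:21717528-21717627 (plus, Hist1h3h), chr13:21750554-21750653 (minus, Hist1h4k) and chr13:23698459-23698558 (minus, Hist1h4c). A match of letters describes the sequence and says nothing on whether the factor was bound in these midbrains.

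Histone mRNA was detected in every library. Levels are given as the deposited normalized count, a read count divided by a size factor of its library, or as that count per kb of annotated exon where genes are compared. Reads assigned to genes numbered 1692963 to 5942192 per library (median 4921748), and 1 read was worth 0.702 normalized counts in library 8 and 2.59 in library 7. Of the 65 members, 59 had at least 1 read in some library and 53 reached a mean normalized count of 5, the minimum for testing. Together they took 0.0986% to 0.182% of the reads. H4 held 46.0% of the summed level of the members, H2B 21.7%, H3 13.1%, H1 12.1% and H2A 7.05%. Read by length, H4 also had the highest median, at 253.7 normalized counts per kb over its 13 members, against 75.1 for H1, 62.5 for H2B, 60.7 for H3 and 14.8 for H2A. Without the 5 members that lie wholly inside exons of other genes, the medians were 68.2 for H2B, 64.7 for H3 and 15.4 for H2A. All 18 H2A members shared exon bases with another gene (9.91% to 100%, median 33.0%), against 1 of 6 H1, 2 of 16 H2B, 2 of 12 H3 and 1 of 13 H4 members with at least 1% shared. The part of this overlap in the low H2A level was not tested. Midbrain markers, among them En2 and Otx2, summed to 996 to 1622 normalized counts and a list of cortex markers to 821 to 1059.6, so these sums do not settle which of the 2 tissue names is right.

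**Figure D1:**
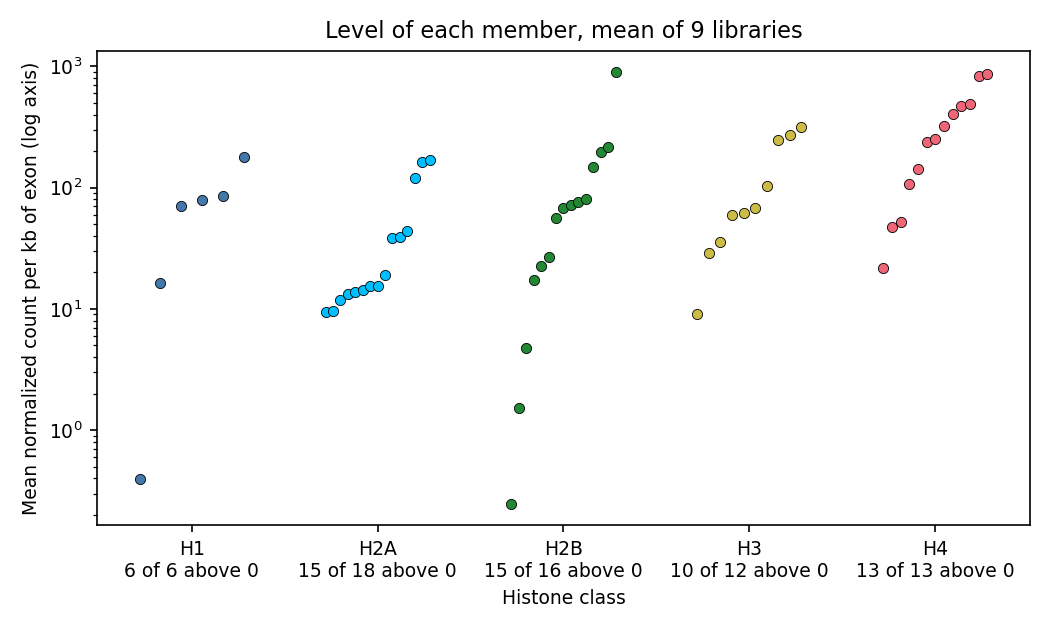
Mean normalized count per kb of exon over the 9 libraries (log axis) for each member, by histone class, with members ordered by level within a class. Each point is a gene, members at 0 are left out, and Hist3h2ba (895) among H2B and Hist1h4k (859) and Hist1h4h (836) among H4 stood highest.

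Among the core histones that form the tetramer, 3 H4 genes led their class per length. Hist1h4k had 344, 246 and 305 normalized counts in the *Nkx2.9*+/+ libraries 7, 8 and 9, then 321, 199 and 230.1 in the *Nkx2.9*LacZ/+ libraries 4, 5 and 6, and 395, 189 and 183 in the *Nkx2.9*LacZ/LacZ libraries 1, 2 and 3. Hist1h4h had 458, 310.2 and 506, then 593, 229.7 and 332, and 534, 287 and 287 in the same order. Hist1h4c had 564, 261 and 433, then 618, 349 and 295, and 529.9, 272 and 268. In each of the 3 genes library 1 was the highest of its genotype, library 4 of its genotype, and library 8 the lowest of the *Nkx2.9*+/+ libraries, so the genotypes overlapped. Hist1h4h and Hist1h4k, at 836 and 859 per kb, did not differ beyond this spread, and both stood above Hist1h4c at 486. By mean count Hist1h4c had 399, Hist1h4h 393 and Hist1h4k 268, so the order per kb depends on the annotated models. The exons of Hist1h4c total 820 bases, 454 of them after the stem-loop, against 470 for Hist1h4h and 312 for Hist1h4k. All 13 H4 genes passed the minimum, and H4 was the class with the fewest low members.

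The H3 genes were lower and varied more. Hist1h3e, the leader at 316 normalized counts per kb, had 323, 265 and 325 in *Nkx2.9*+/+, then 368, 198 and 214 in *Nkx2.9*LacZ/+, and 322, 171 and 191 in *Nkx2.9*LacZ/LacZ. Hist1h3i (272 per kb) had 171, 101 and 135, then 152, 70.0 and 76.7, and 163, 57.6 and 79.0. Hist1h3h (248 per kb) had 207, 84.2 and 121, then 109, 54.6 and 92.2, and 143, 33.8 and 72.1. Libraries 1 and 4 were again the high ones of their genotypes. For comparison, the replication-independent H3 genes H3f3b and H3f3a, whose mRNAs carry a poly(A) tail and are made outside S phase, stood at 825 and 326 per kb.

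H2B had the single highest member per length, Hist3h2ba, one of the 2 members on chromosome 11, at 895 normalized counts per kb. It had 690.5, 490.5 and 630.1 in *Nkx2.9*+/+, then 735, 439.7 and 499 in *Nkx2.9*LacZ/+, and 616, 441 and 402 in *Nkx2.9*LacZ/LacZ. This rank by length depends on the annotated models. The H4 gene Hist1h4d had a mean of 535 normalized counts beside 549 for Hist3h2ba, but 470 per kb. After the stem-loop lie 770 of the 1138 exon bases of Hist1h4d, against 169 of 614 in Hist3h2ba. The other leading H2B genes lay in the Hist1 cluster, Hist1h2bb at 217 and Hist1h2bn at 198 per kb. Hist1h2bb had 160.3, 63.2 and 156, then 125, 92.2 and 108, and 137, 94.2 and 56.7. Hist1h2bn had 101, 48.4 and 91.3, then 99.4, 56.4 and 76.7, and 108, 46.6 and 50.7. Library 8 was the lowest *Nkx2.9*+/+ library in all 12 H2B genes tested.

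H2A, the partner of H2B, had the lowest counts, in the class where every member overlaps another gene, and its leaders stood near each other. Hist1h2ak had 103, 51.9 and 64.8 in *Nkx2.9*+/+, then 94.5, 46.1 and 60.4 in *Nkx2.9*LacZ/+, and 70.0, 54.0 and 54.1 in *Nkx2.9*LacZ/LacZ. Hist1h2ai had 67.2, 66.0 and 75.8, then 88.0, 23.9 and 76.7, and 94.1, 23.8 and 57.5. Hist1h2ab had 62.1, 61.8 and 67.0, then 44.0, 45.3 and 74.2, and 83.5, 33.8 and 43.8. Their means per kb were 169, 162 and 121, beside 118 for H2afz, the replication-independent variant H2A.Z. In Hist1h2ab the *Nkx2.9*+/+ libraries lay within the range of the other genotypes.

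The linker histones had the narrowest range of summed level among libraries. Hist1h1e, which encodes H1.4 and led the class at 179 normalized counts per kb, had 367, 335 and 400.4 in *Nkx2.9*+/+, then 399, 298 and 288 in *Nkx2.9*LacZ/+, and 383, 373 and 273 in *Nkx2.9*LacZ/LacZ. Hist1h1a (85.0 per kb) had 69.8, 40.7 and 95.7, then 68.4, 37.6 and 66.1, and 79.8, 68.6 and 40.4. Hist1h1b (79.6 per kb) had 72.4, 44.9 and 63.3, then 60.3, 55.5 and 72.6, and 93.3, 33.8 and 36.1. Hist1h1a and Hist1h1b thus stood side by side within their spread, well under Hist1h1e. A level per kb depends on the annotated model: Hist1h1d, with 122 normalized counts, came to 16.4 per kb because its exons total 7425 bases, 4884 of them after the stem-loop.

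The lowest members fell into separate kinds. The testis genes were near 0: Hist1h2aa had 0 reads in all libraries, Hist1h2ba had 1 read in library 5 and Hist1h1t had 2 reads in library 4, where a count of 0 allows up to 3 reads in a library. The other 5 members at 0 were Hist2h2aa1, Hist2h2aa2, Hist2h3b, Hist2h3c1 and Hist2h2bb, and these were also the 5 members of the 65 whose exon bases lie wholly inside exons of other annotated genes. None of the 41 members with under 1% of such overlap was at 0. How the counting treated reads on overlapping genes or on the opposite strand is not given in the sources used here, so a 0 in these 5 genes is a listed 0 and no measure of their expression. Just inside the minimum of 5 stood Hist1h2ah (6.26), Hist1h2af (5.68) and Hist1h2an (5.41), and just outside it Hist1h2ag (4.70), Hist1h2ap (4.57) and Hist1h2bp (3.35).

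Many members are near copies of each other, which limits how far reads can be assigned to 1 gene. The share of a gene's 100-base stretches that also occur in another annotated gene was taken without genes that overlap it. It was under 20% in 23 members, whose median level was 95.1 normalized counts. It was 20% to under 80% in 30 members (median 34.8) and 80% or more in 12 (median 7.68). Hist1h3h (92.0%), Hist1h2ai (88.4%), Hist1h3i (68.6%) and Hist1h4k (64.3%) are thus uncertain as single genes. Hist1h1a, Hist1h1b (both 0%), Hist1h1e (3.00%), Hist3h2ba (4.85%) and Hist1h2ak (10.5%) can be told apart from genes elsewhere over most of their length. Of these, Hist1h1e and Hist1h2ak had 25.7% and 35.1% of their exon bases inside exons of overlapping genes, which this share leaves out.

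**Figure D2:**
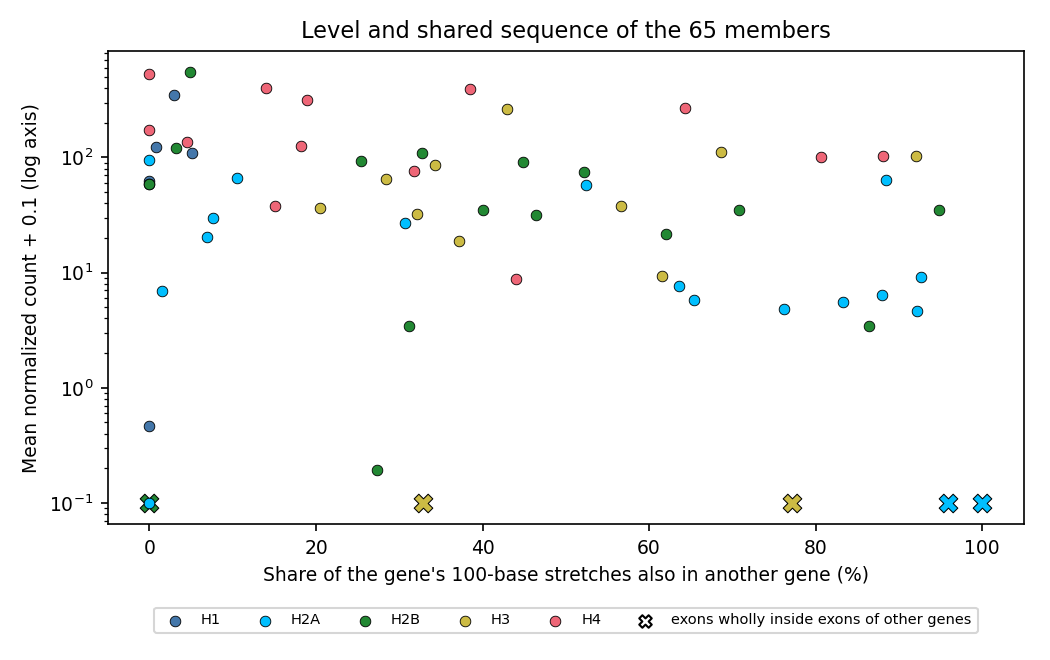
Mean normalized count plus 0.1 (log axis) of the 65 members against the share of their 100-base stretches found in another annotated gene (percent). Genes that overlap a member were left out of this share. Circles are genes coloured by class, crosses are the 5 members wholly inside exons of other genes, all at 0; at 0% shared, Hist1h2aa (circle) lies over Hist2h2bb (cross).

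The members moved together between libraries of the same genotype. Their summed level was 7267, 4915 and 6932 in the *Nkx2.9*+/+ libraries 7, 8 and 9, with a mean of 6371 ± 1272 (SD, n = 3). It was 7651, 4397 and 5113 in the *Nkx2.9*LacZ/+ libraries 4, 5 and 6 (5720 ± 1710, n = 3). In the *Nkx2.9*LacZ/LacZ libraries 1, 2 and 3 it was 7468, 4369 and 4169 (5335 ± 1850, n = 3). Within a genotype the highest sum was 1.48 to 1.79 times the lowest, while the 3 genotype means lay within 1 SD of each other. In bulk RNA, fewer cells in S phase and less histone mRNA per cell cannot be told apart. Library 1 was the highest *Nkx2.9*LacZ/LacZ library for 51 of the 53 members tested, against 33.6% of all genes tested. Library 4 was the highest *Nkx2.9*LacZ/+ library for 43 of 53 (39.9% of all genes), and library 8 the lowest *Nkx2.9*+/+ library for 43 of 53 (29.9% of all genes).

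**Figure D3:**
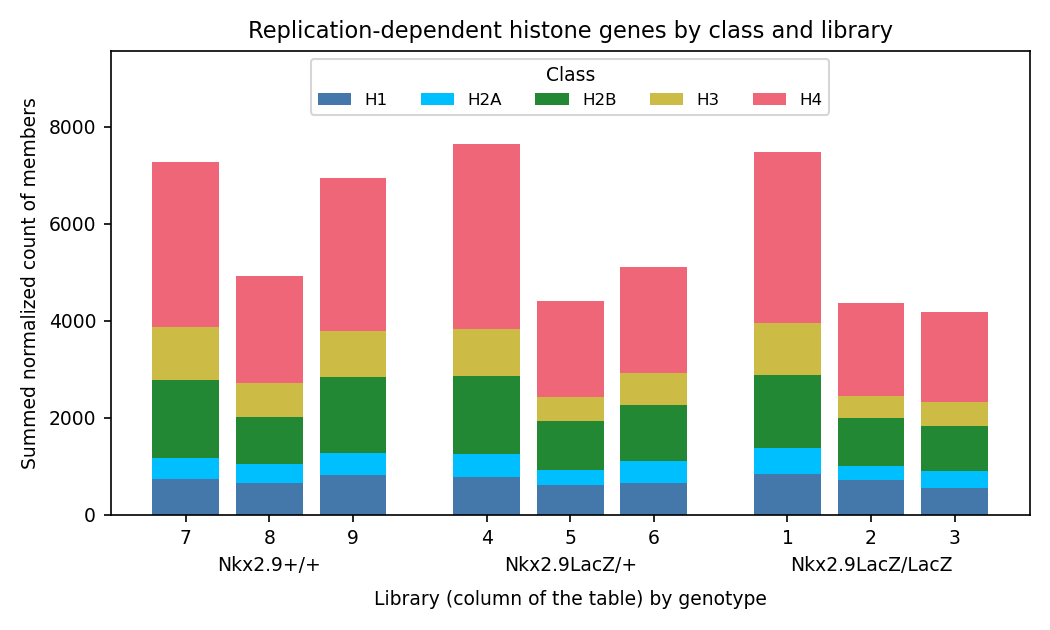
Summed normalized count of the members in each library, stacked by histone class, with libraries named by their column and set in order of genotype. The sums of libraries 7, 9, 4 and 1 lay between 6932 and 7651, and those of the other libraries between 4169 and 5113, with high and low libraries in every genotype.

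The range differed by class. Library 1 or 4 had the highest sum for H1, H2A, H2B and H4, and library 7 for H3. Over the 9 libraries, the highest class sum was 1.53 times the lowest for H1, 1.73 for H2B, 1.93 for H2A, 2.08 for H4 and 2.45 for H3. The median residual SD of the members tested, the spread between libraries of a genotype on the log2 scale, was 0.535, against 0.289 over all 16993 genes tested. At matched levels (31.5 to 112 normalized counts) it was 0.541 for 27 members and 0.292 for 4152 genes. By class it was 0.289 for H1, 0.478 for H4, 0.483 for H2A, 0.546 for H2B and 0.750 for H3. Genotype means are therefore less precise for these genes than for most others. H1 rests on 5 genes, of which Hist1h1a (0.535) and Hist1h1b (0.519) had the spread of the other classes and Hist1h1e (0.229) did not.

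**Figure D4:**
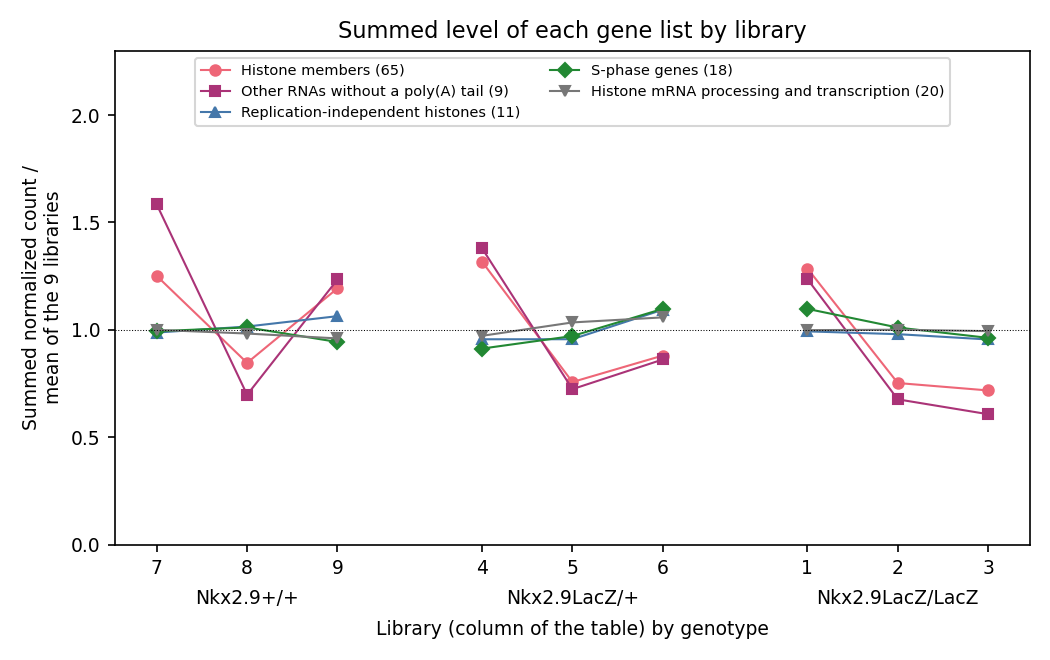
Summed normalized count of each gene list in each library, divided by its mean over the 9 libraries, with libraries in order of genotype. Points are libraries and lines join those of a genotype; histone members and other RNAs without a poly(A) tail ranged widely, while S-phase genes, replication-independent histones and processing factors stayed near 1.

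Most other lists of the pathway varied less, and none in the same order of libraries. The summed level of 18 S-phase genes, among them Pcna, Mcm2 and Mcm3, lay between 1271 and 1529 normalized counts, with the highest library 1.20 times the lowest. Replication-independent histones (11 genes, led by H3f3b at a mean of 2456) lay between 5758 and 6595, a ratio of 1.15. Genes of histone mRNA processing and transcription lay between 4300.2 and 4739, a ratio of 1.10; among them Slbp, which binds the stem-loops shown above, had a mean of 108 and Npat 189. Histone chaperones (12 genes, among them Asf1a and Chaf1a) ranged wider, from 3323 in library 4 to 4894 in library 5, a ratio of 1.47, with the lowest sums in libraries 4, 7 and 1. Markers of proliferating cells (Mki67, Top2a, Ccnb1, Cdk1 and Aurkb) lay between 238 and 426, a ratio of 1.79, but with their highest sums in libraries 6 and 1 and the lowest in library 4, where the members were highest.

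A list of other RNAs without a poly(A) tail did vary with the members. It was led by Rn7sk, the 7SK RNA, and also held Rpph1, Rmrp, Rn7s1, Rn7s2, Terc and Scarna2; Rnu7 and Snora73b were at 0. Its sum was 165862, 73013 and 129267 in libraries 7, 8 and 9, then 144438, 75780 and 90241 in libraries 4, 5 and 6, and 129431, 70799 and 63547 in libraries 1, 2 and 3. Libraries 7, 4, 1 and 9 were the highest for this list and also for the members. Of its 7 tested genes, 7 were highest in library 1 among *Nkx2.9*LacZ/LacZ, 6 in library 4 among *Nkx2.9*LacZ/+, and 7 lowest in library 8 among *Nkx2.9*+/+. Erythroid markers (5 genes, all present) ranged from 1025 in library 3 to 1815 in library 4, with libraries 4, 7 and 1 highest here too. Neuron markers were at 21624 in library 4 and 23903 in library 7, and at 25871 to 28200 in the others. Depth did not follow this order: libraries 4 and 7 were the shallowest, but libraries 1 and 9 were not. The part of any of these in the members' levels was not tested.

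Against this spread, no histone gene passed the test between *Nkx2.9*LacZ/LacZ and *Nkx2.9*+/+ after adjustment over all genes. The library labels set every direction given here, and *Nkx2.9* itself could hardly check them: the homozygous columns held 4, 6 and 3 of its reads, the heterozygous columns 0, 7 and 4 and the wild-type columns 0, 2 and 2, in a gene of which the LacZ allele lacks exon 1. Each homozygous column held more of these reads than any wild-type column, and the highest count was in a heterozygous library. With so few reads, these counts neither bear out the labels nor show an error in them. The genotype behind each direction was not checked in any of the 3 comparisons. If the homozygous and wild-type columns had been exchanged, every sign of this comparison would turn, so that 41 members would read as higher and 12 as lower. The heterozygous libraries would then have been compared with homozygous ones where wild type is written, and the reverse. Whether the columns had been exchanged was not tested. With limma, 0 of 53 members and 0% of 16993 genes had an adjusted p under 0.05, where edgeR and DESeq2 also called 0 genes. At an unadjusted p under 0.05, limma called 1 of 53 members beside 2.6% of all genes, edgeR 0 and DESeq2 1. These p-values set the difference between genotypes against the spread between libraries. In 0 of 53 members did the 3 libraries of a genotype all lie on one side of those of the other, which held for 9.52% of all genes. Of the members, 41 had a lower and 12 a higher estimate in *Nkx2.9*LacZ/LacZ, with a median log2 fold change of −0.27 (0.01 over all genes). By class the median was −0.10 for H1, −0.25 for H2A, −0.28 for H2B, −0.30 for H4 and −0.50 for H3.

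The member that limma called at an unadjusted p was Hist1h3c, an H3 gene at chr13:23744973-23745602 on the minus strand. It had 124, 60.3 and 93.5 normalized counts in *Nkx2.9*+/+, 68.4, 23.9 and 57.9 in *Nkx2.9*LacZ/+, and 99.4, 33.8 and 25.8 in *Nkx2.9*LacZ/LacZ. Libraries 2 and 3 lay under every *Nkx2.9*+/+ library and library 1 lay above 2 of them, so the groups overlapped. The log2 fold change was −0.98 (SE 0.448, 95% interval −1.94 to −0.03, unadjusted p = 0.0435 and adjusted p = 1.00 in limma), and the exact two-sided permutation test, which cannot go below 0.1 with 3 against 3, gave p = 0.3. It missed the unadjusted threshold in edgeR (−0.71) and in DESeq2 (−0.80), where Hist4h4 was the member called. Against *Nkx2.9*+/+, *Nkx2.9*LacZ/+ showed a value near it, −0.94 (unadjusted p = 0.0519), with the same control libraries. Other H3 genes had low estimates without passing: Hist1h3b −0.94, Hist1h3d −0.93 and Hist1h3h −0.85, but Hist1h3g 0.33.

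**Figure D5:**
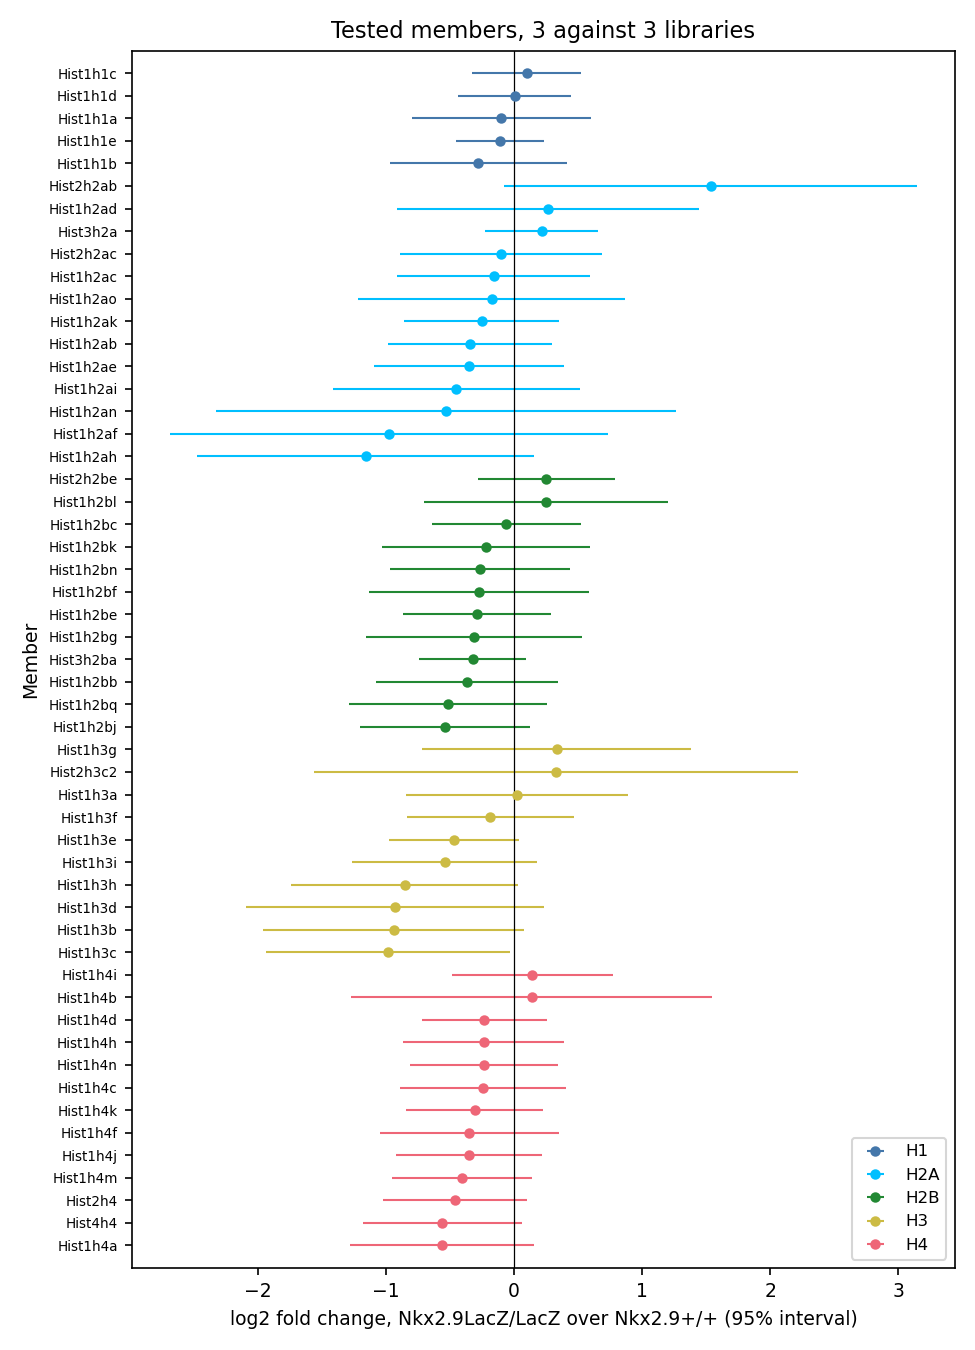
Log2 fold change of *Nkx2.9*LacZ/LacZ over *Nkx2.9*+/+ for the 53 members tested (limma, log2 of normalized count plus 1), by class, with 95% intervals as bars. Estimates ran from −1.16 to 1.54, and Hist1h3c is the member whose interval (−1.94 to −0.03) leaves out 0.

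For the leading members the intervals show what size of difference these libraries could hold. For Hist1h1e the log2 fold change was −0.11, with an interval of −0.46 to 0.23. For Hist3h2ba it was −0.32 (−0.74 to 0.09), for Hist1h3e −0.47 (−0.98 to 0.04) and for Hist1h2ak −0.25 (−0.86 to 0.35). For the H4 genes it was −0.30 (−0.84 to 0.23) for Hist1h4k, −0.23 (−0.86 to 0.39) for Hist1h4h and −0.24 (−0.89 to 0.41) for Hist1h4c. The widest intervals belonged to members near the minimum, such as Hist1h2af, whose 12.0, 0 and 3.44 normalized counts in *Nkx2.9*LacZ/LacZ came from at most 16 reads a library.

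The count of members called turned on single libraries. Without library 1, 21 of 53 members had an unadjusted p under 0.05, all of them lower in *Nkx2.9*LacZ/LacZ, beside 2.67% of all genes, and the median log2 fold change was −0.56. They were 8 H4, 6 H3, 4 H2A, 2 H2B and 1 H1 gene, with Hist1h3c (−1.56), Hist1h3d (−1.69) and Hist1h3b (−1.56) of the smallest p. Without library 8 the count was 10 of 53, all lower, beside 4.87% of all genes. It was 5 without library 4 (4.51% of all genes) and 3 without library 5 (2.53%), but 0 without library 2 (1.67%) or without library 3 (1.71%), where the median was −0.09 and −0.11. It was 1, lower, without library 6 (2.58%; Hist1h3c) or library 7 (1.89%; Hist1h2an). Without library 9 (3.78%) the 1 member called was higher, Hist2h2ab (log2 fold change 2.20, unadjusted p = 0.0153), with a mean under 10 normalized counts in each genotype and 68.2% of its exon bases inside exons of other genes. No member had an adjusted p under 0.05 without any one library. Library 1 had the highest and library 8 the lowest histone level of its genotype, so leaving either out widens the difference by construction.

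The heterozygous libraries gave no adjusted call of a member either. Between *Nkx2.9*LacZ/+ and *Nkx2.9*+/+, 0 of 53 members had an adjusted p under 0.05 in limma (0% of all genes), and DESeq2 called 1 gene, no member. At an unadjusted p, limma, edgeR and DESeq2 each called 0 members, beside 2.78% of all genes in limma. In 0 of 53 members the groups did not overlap (6.91% of all genes). The median was −0.13, with 39 lower and 14 higher, and by class −0.05 for H2A, −0.11 for H2B, −0.14 for H1, −0.22 for H4 and −0.39 for H3. Without library 4, the highest of its genotype, 11 of 53 were called, all lower, beside 5.49% of all genes. It was 5 without library 8 (3.83% of all genes). It was 1 of 53, a share under that of all genes, without library 1 (2.32%), 3 (2.24%) or 6 (3.51%).

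Of *Nkx2.9*LacZ/LacZ against heterozygous libraries, limma called 0 of 53 members at an adjusted p (0% of all genes) and 0 at an unadjusted p (2.64% of all genes), where edgeR and DESeq2 each called 1 at an unadjusted p and 0 after adjustment. That member was Hist1h2an, an H2A gene of low level whose 100-base stretches are 83.3% shared. It had 3.01, 0.915 and 2.58 normalized counts in *Nkx2.9*LacZ/LacZ and 8.15, 6.83 and 10.6 in *Nkx2.9*LacZ/+, the only member of 53 without overlap, against 8.71% of all genes. The log2 fold change was −1.64 (SE 0.845, unadjusted p = 0.0705 in limma), with 0 to 14 reads a library, and *Nkx2.9*+/+ reached from 0 to 10.3. The median over the members was −0.13 (12 higher and 41 lower), and it turned to 0.02 without library 2 and 0.09 without library 4. Without library 1 the count of members called was 4, all lower, beside 2.21% of all genes. It was 1 of 53, again under the share of all genes, without library 4 (2.9%), 5 (4.35%), 6 (4.04%) or 7 (3.46%).

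The lists of related genes held no adjusted call either. Of 19 tested genes of histone mRNA processing and transcription, 1 had an unadjusted p under 0.05 between *Nkx2.9*LacZ/LacZ and *Nkx2.9*+/+: Ccne1, the cyclin E1 that activates CDK2 at S-phase entry, with 12.8, 12.8 and 1.72 normalized counts against 25.9, 16.1 and 16.2 (log2 fold change −1.31, unadjusted p = 0.0303 in limma). Library 3 held the lowest of these values. Slbp had a log2 fold change of −0.01, Npat 0.23 and Lsm11, a U7 snRNP protein, −0.09, and the median of the list was −0.02. Of 12 histone chaperones 1 was called, Chaf1b of the CAF-1 complex, which loads H3 with H4 onto new DNA (−0.80, unadjusted p = 0.0497 in limma); Asf1a had 0.12, Asf1b −0.13 and Chaf1a 0.58. No gene was called among 18 S-phase genes (Pcna 0.04, Mcm2 −0.06, Mcm3 0.14; median 0.07) or 11 replication-independent histones (H3f3a −0.11, H3f3b −0.06, H2afz −0.06; median −0.06). In *Nkx2.9*LacZ/LacZ against heterozygous libraries Ccne1 was called again (−1.30, unadjusted p = 0.0317 in limma), with the same *Nkx2.9*LacZ/LacZ libraries. Of the 7 tested RNAs without a poly(A) tail, all 7 had a lower estimate in *Nkx2.9*LacZ/LacZ than in *Nkx2.9*+/+ (median −0.43), and Rn7s1 was called at an unadjusted p of 0.00167 in limma, with 30203 normalized counts in library 7 and 2438 to 7966 in the others.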

How the data were processed

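RNA of E14.5 midbrains was sequenced in 9 libraries. According to the methods of the study, the authors depleted ribosomal RNA, aligned 100-bp read pairs with HISAT2 to mm10 (GRCm38) and counted reads per gene with featureCounts; versions, annotation release and strand setting are not given in the sources used here. The labels name a TRIzol extraction and an mRNA library guide instead. The authors deposited a signal per gene and library, the read count divided by a DESeq2 size factor. Their 3 deposited tables of DESeq2 comparisons hold fold changes and p-values and were not used.

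Columns were grouped by the genotype they name; they carry no replicate number, and 0 sample columns went unused. Whole reads were recovered for 100% of 210686 values above 0 (within 0.05 of a whole number). The main test was limma 3.58.1 (R 4.3.3) with a mean-variance trend on log2(normalized count + 1), all 9 libraries in one fit, two-sided, with Benjamini-Hochberg adjustment over 16993 genes with a mean of at least 5. Fold changes on this scale compare mean log2 values: the pseudocount shrinks those of low genes, while a library at 0 can enlarge one or turn its sign against the ratio of means, as for Hist2h3c2. On the recovered reads, edgeR 4.0.16 called 0 genes after adjustment in each comparison and DESeq2 1.42.0 called 0, 1 and 0. The limma, edgeR and DESeq2 fits were tested on simulated data for *Nkx2.9*LacZ/LacZ against *Nkx2.9*+/+ only. Single members also had an exact permutation test. Alternatives were pseudocounts of 0.5 and 5, no minimum or one of 20, 2 genotypes only, no trend, upper-quartile scaling, each library left out and, chosen after seeing the data, libraries 4 and 7 left out.

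Members named are the 3 highest per kb in each class, any with an unadjusted p under 0.05, and those around the minimum; others are named where a sentence says why. Members and lists were chosen with earlier results of these data known. Gene positions and transcripts came from GENCODE vM21, promoters from RefSeq (GRCm38.p6). Figures used matplotlib 3.10.9. Some values of single genes in the lists are not reported here.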

Additional observations from a re-analysis of the deposited data

How the results depend on the processing

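The median log2 fold change of the members kept its sign under every alternative for *Nkx2.9*LacZ/LacZ and for *Nkx2.9*LacZ/+ against *Nkx2.9*+/+, with ranges of −0.56 to −0.09 and −0.34 to −0.0041; between the LacZ genotypes it ran from −0.47 to 0.09. The counts of members with an unadjusted p under 0.05 were less stable, and the share of all genes, given in brackets, moved too. For *Nkx2.9*LacZ/LacZ against *Nkx2.9*+/+ (1 in the report) the count was 5 with no minimum (3.59%), 4 with only the 2 genotypes compared (3.78%), 0 with edgeR (2.48%), 2 without libraries 4 and 7 (4.14%), and 0 to 21 with each library left out. For *Nkx2.9*LacZ/+ against *Nkx2.9*+/+ (0) it was 1 with a pseudocount of 5 (2.81%), 2 with no minimum (3.59%), 1 with only 2 genotypes (1.65%), 6 without libraries 4 and 7 (5.01%), and 0 to 11 with each library left out. Between the LacZ genotypes (0) it was 1 with a pseudocount of 5 (2.71%), only 2 genotypes (2.71%), edgeR (2.65%) and DESeq2 (1.9%), 2 without libraries 4 and 7 (5.71%), and 0 to 4 with each library left out. With each library left out, the members called were lower in the genotype named first, except Hist2h2ab (2.20, *Nkx2.9*LacZ/LacZ against *Nkx2.9*+/+ without library 9) and, between the LacZ genotypes, Hist1h4n (0.66, without library 4) and Hist3h2a (0.50, without library 6). Over all genes, adjusted calls were 0 except for 6 without libraries 4 and 7 (*Nkx2.9*LacZ/LacZ against *Nkx2.9*+/+, no member) and 1 with DESeq2 (*Nkx2.9*LacZ/+ against *Nkx2.9*+/+). Apart from fewer samples where libraries were left out, the cause was not tested. Hist1h3c kept its direction under all 19 alternatives and its side of the threshold under 11. No paired analysis was possible because the columns carry no replicate numbers. Depth limits the members near the minimum, such as Hist1h2an with 57 reads over all libraries.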

Other observations

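Other marker lists were read only for their levels. Endothelial markers summed to 432 to 528 normalized counts over the 9 libraries, microglial markers to 49.0 to 84.1 and meningeal markers to 169 to 319, and their order of libraries was not that of the histone genes. Among the midbrain markers, Pax7 (log2 fold change −0.63, unadjusted p = 0.0119) and En1 (−0.60, unadjusted p = 0.0277) were lower in libraries 1 to 3 than in libraries 7 to 9, that is, in homozygous than in wild-type libraries by their labels (limma). En2 had −0.44 (unadjusted p = 0.0502 in limma), with no overlap between those libraries. Of the 6 midbrain markers tested in this comparison, 3 had a lower and 3 a higher estimate, the highest 0.27. The adjusted p was 1.00 for Pax7, En1 and En2, and the signs would turn if the homozygous and wild-type columns had been exchanged. Col1a1, a meningeal marker, had a lower level in heterozygous than in wild-type libraries (−0.77, unadjusted p = 0.00766 in limma), and so had Rn7s1 (−1.46, unadjusted p = 0.00626), again with an adjusted p of 1.00 for both. Of the 4 meningeal markers tested in that comparison, 3 had a lower and 1 a higher estimate (1.41).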
